A study of Mus musculus with 16 samples.

Results

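Ribosome biogenesis and nucleolar genes were examined as a group of 42 genes among the 26219 genes measured in mouse primordial germ cells (PGCs), which later give rise to sperm and eggs. The group was selected on a measured value of its founding gene: Bysl was among the clearest falls between E11.5 and E13.5 (embryonic days) in these same libraries, and named factors of the same pathway were added to it by symbol. All 42 symbols were found in both expression tables, and all 42 passed the filter on low values in both.

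The series measured messenger RNA by 3′ sequencing, in which reads come from the ends of transcripts, in 16 libraries of sorted PGCs. Of these, 8 came from wild-type embryos of an ICR and C57BL/6 cross (1:1 in the labels) carrying the reporter Dppa3(EGFP/+), 2 each at E10.5, E11.5, E13.5 male and E13.5 female. The other 8 came from C57BL/6 embryos at E11.5, and all carried Prdm1(flox/flox) and Rosa26(neo-EYFP/+). Prdm1 encodes a transcriptional repressor needed to specify PGCs. The 4 libraries labelled CKO (conditional knockout) also carried Dppa3-MCMP(Tg/0), a transgene for a tamoxifen-inducible Cre under the germ cell gene Dppa3, which the 4 controls lacked. All floxed litters were exposed to 3 mg of 4-OHT per 25 g of maternal body weight, given at E10.5.

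Ribosomes are built in the nucleolus. RNA polymerase I makes a long precursor RNA there, small nucleolar ribonucleoproteins (snoRNPs) guide its methylation and pseudouridylation, and a series of assembly factors fold, cut and export the small and large subunits. The programme is costly and usually follows a cell's growth and proliferation, and in the gonad around E13.5 female germ cells enter meiosis while male germ cells stop dividing.

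Values were in RPM (reads scaled to the total of gene-assigned reads, not divided by gene length), so levels are compared within a gene and not between genes. Depth was about 1485000 to 4783000 reads per wild-type library and 2798000 to 5032000 per floxed library. All 12 germ cell markers were at 5 RPM or more in every library, and the 15 somatic and mesenchymal markers summed to 5.44 to 68.8 RPM in the wild-type libraries and 13.2 to 266 RPM in the floxed ones. In CKO-labelled 4, 11 of the 15 were at 5 RPM or more, with Col3a1 at 112 RPM, while Amh (Sertoli cells) and Foxl2 (granulosa cells) were at or below 0.569 RPM in every library. Prdm1 read 50.7 to 73.0 RPM in the controls and 76.6 to 89.4 RPM in the CKO-labelled libraries. The labels do not say which exons are removed, so 3′ reads of Prdm1 do not check the CKO label. Control 1 and CKO-labelled 4 stood apart, with the lowest mean correlations with their own group. Nothing in the labels ties the replicates to different embryos, and the p-values therefore reflect only how libraries varied, which may be technical. In bulk samples, fewer cells of a type and less RNA per cell cannot be told apart.

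Promoter sequences were looked at first for the E-box CACGTG, the 6-base site read by MYC and related factors that are known regulators of ribosome biogenesis. RefSeq windows (GRCm38.p6, the build of the files) of 250 bases before to 50 after the start were found for 37 of the 42 genes. The palindrome, which reads alike on both strands, stood in 8 of those 37 (21.6%), against 8.09% of 27025 genes in the same table. The stretches of 30 bases around each match are given to show where the E-box lies in each gene. In the comparison of female with male cells at E13.5 described below, where 16.4% of all genes were called lower in females, 6 of these 8 genes and 14 of the 29 without the E-box were. The difference between the 2 sets was not tested. Capitals mark the E-box.
Imp4, chr1:34439696-34439725, plus strand: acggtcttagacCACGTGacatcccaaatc
Nop2, chr6:125131811-125131840, plus strand: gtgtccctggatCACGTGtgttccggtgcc
Mybbp1a, chr11:72441347-72441376, plus strand: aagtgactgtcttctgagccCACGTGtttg
Pes1, chr11:3963965-3963994, plus strand: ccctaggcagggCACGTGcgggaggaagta
Tsr1, chr11:74898092-74898121, plus strand: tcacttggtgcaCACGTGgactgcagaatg
Pno1, chr11:17211540-17211569, minus strand: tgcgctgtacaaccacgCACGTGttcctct
Ltv1, chr10:13193092-13193121, minus strand: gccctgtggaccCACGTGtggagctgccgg
Wdr43, chr17:71616220-71616249, plus strand: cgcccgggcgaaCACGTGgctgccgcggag

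In Imp4 and Nop2 the E-box lay before the start, and the Imp4 stretch also falls in an annotated exon of the neighbouring gene Gm28306. In the other 6 it lay just inside the first exon. The window of Bysl, the gene that founded the group, held no CACGTG. Its last 60 bases before the start, chr17:47611493-47611552 on the minus strand, contain no annotated exon and are shown for comparison.
Bysl: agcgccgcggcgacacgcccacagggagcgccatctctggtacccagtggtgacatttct

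Between E11.5 and E13.5 Bysl was lower by a factor of about 3, the largest negative difference of the group. Bysl encodes bystin, a late factor of the small subunit precursor. The values of this comparison chose the group and are given as a description, with no test. Bysl read 575 and 565 RPM at E10.5, 571 and 583 at E11.5, 186 and 182 in E13.5 males, and 197 and 189 in E13.5 females. The 4 libraries at E13.5 were all far below the 4 earlier ones, with the females slightly above the males. On the log2(RPM + 1) scale the difference from E11.5, averaged over the sexes, was -1.61. Over the 42 genes the median difference was -0.13, against 0.11 over all 10749 genes tested. In the same model 16 of the 42 were called lower and 5 higher, where 18.8% of all genes were called lower and 29% higher. The rule used this comparison, so nothing is read from these counts. Quantile normalisation moved the median of all genes from 0.11 to -0.01, and that of the 42 genes to -0.18. With it 2555 genes were called higher and 2560 lower over all genes, in place of 3121 and 2025, and 5 and 19 of the 42. Median-ratio scaling gave 2622 higher and 2502 lower over all genes, and 4 and 21 of the 42.

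**Figure D1:**
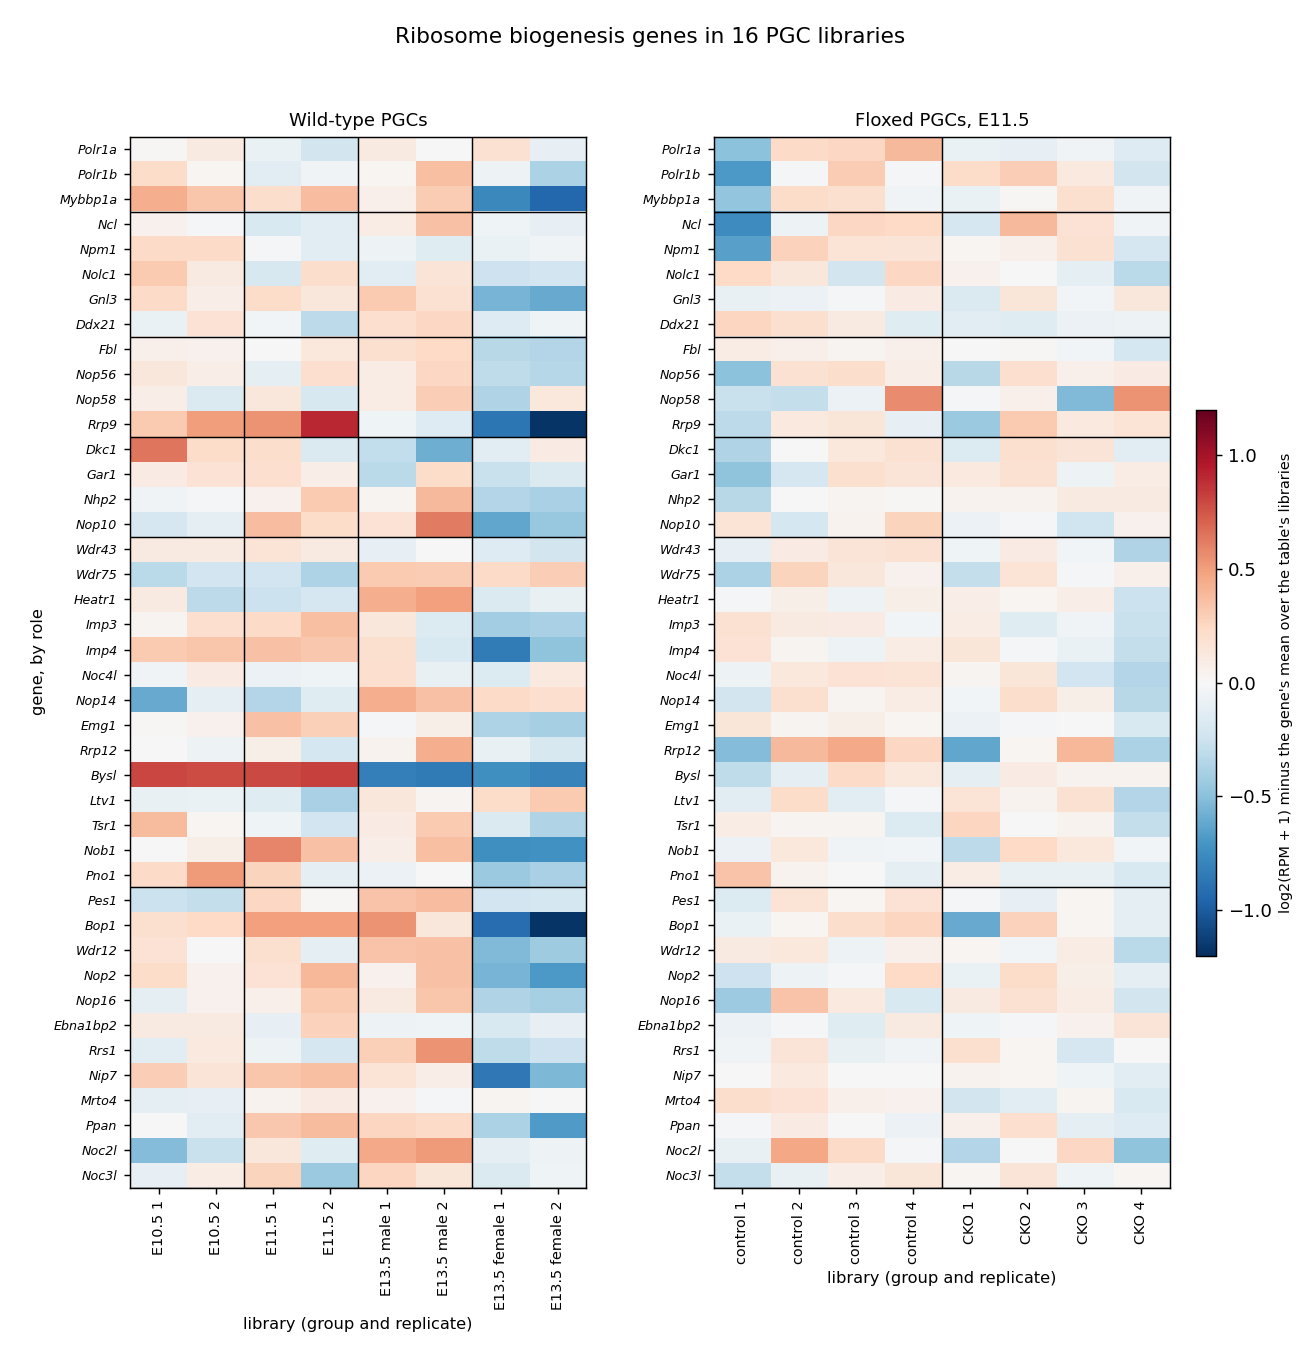
Heat map of the 42 genes (rows, ordered by role with lines between roles) in each library (columns) of the wild-type table, left, and the floxed table, right; colour is log2(RPM + 1) minus the gene's mean over the libraries of that table. Bysl separates the E13.5 libraries from the earlier ones in both sexes, 21 genes have their lowest 2 values in the female libraries, and floxed control 1 is blue for genes such as Npm1 and Ncl.

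After Bysl, the largest negative differences belonged to Rrp9, Bop1, Nob1 and Imp4. Rrp9, the U3-specific protein of the box C/D class, read 97.7 and 126 RPM at E11.5, 64.5 and 60.2 in E13.5 males, and 36.2 and 29.1 in E13.5 females. Imp4, a U3 partner in the small-subunit processome, read 142 and 139.5 at E11.5, 127 and 97.9 in males, and 61.9 and 79.2 in females. In both genes every E13.5 library was below both E11.5 libraries, with the females lowest. Bop1 and Nob1 differed from E11.5 mainly in females, and their values follow with the sex comparison. The log2 differences were -1.28 for Rrp9, -0.84 for Bop1, -0.72 for Nob1 and -0.67 for Imp4.

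The other end of the order held processome and nucleolar factors that were higher at E13.5. Wdr75, which couples polymerase I transcription to early processing, read 167 and 151 RPM at E11.5, 244 and 242 in males, and 230 and 239.8 in females. Nop14, a small-subunit processome protein, read 66.7 and 77.2 at E11.5, 116 and 109 in males, and 100.3 and 98.4 in females. Ltv1, a late pre-40S factor, read 117 and 98.5 at E11.5, 143 and 133 in males, and 151 and 161 in females. For these 3 genes both sexes lay above both E11.5 libraries. Heatr1, another early processome factor, read 112 and 116 at E11.5 and 181 and 188 in males, while the females, at 119 and 126, were close to E11.5. The helicase gene Ddx21 read 104 and 86.0 at E11.5, 123 and 127 in males, and 96.0 and 103 in females, and only the males were clear of E11.5. The log2 differences were 0.58 for Wdr75, 0.55 for Nop14, 0.44 for Ltv1, 0.39 for Heatr1 and 0.24 for Ddx21.

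By library, 8 of the 42 genes had all 4 E13.5 values below both E11.5 values, which was so for 17.5% of all genes tested: Bysl, Rrp9, Wdr43, Imp3, Imp4, Emg1, Nip7 and Ppan. Set against E11.5 by sex, 4 genes were called lower in males (Bysl, Rrp9, Emg1 and Dkc1) and 7 higher, where the shares of all genes were 15.9% and 22.3%. Against the same 2 E11.5 libraries, 22 were called lower in females and 3 higher, where the shares of all genes were 20% and 31.2%. Both comparisons share those libraries and belong to the comparison that the rule used. Their medians over the 42 genes were 0.05 in males and -0.34 in females.

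Ccnd3, a neighbour of Bysl, was lower at E13.5 as well. Bysl (chr17:47599331-47611492, minus strand) runs tail to tail with Ccnd3 (chr17:47505051-47599689, plus strand), which encodes cyclin D3. In GENCODE M21 the last 500 bases of Bysl overlap exons of Ccnd3 by 361 bases, at chr17:47599331-47599691. Reads of 3′ sequencing come from this end of a transcript. Ccnd3 read 74.9 and 65.0 RPM at E10.5, 49.2 and 66.9 at E11.5, 16.7 and 14.8 in E13.5 males, and 20.3 and 18.9 in E13.5 females. Its difference between E13.5 and E11.5 was -1.65 on the log2 scale, next to -1.61 for Bysl. The ratio of Bysl to Ccnd3 stayed between 7.67 and 12.3 in the wild-type libraries and between 9.16 and 13 in the floxed libraries. Whether gene assignment used the strand is not given in the sources used here, so reads of the pair cannot be told apart. Med20, a neighbouring gene, read 40.6 to 57.4 RPM in the wild-type libraries, and its values at E13.5, 48.5 to 57.4 RPM, overlapped those at E11.5, 45.8 and 51.2 RPM.

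**Figure D2:**
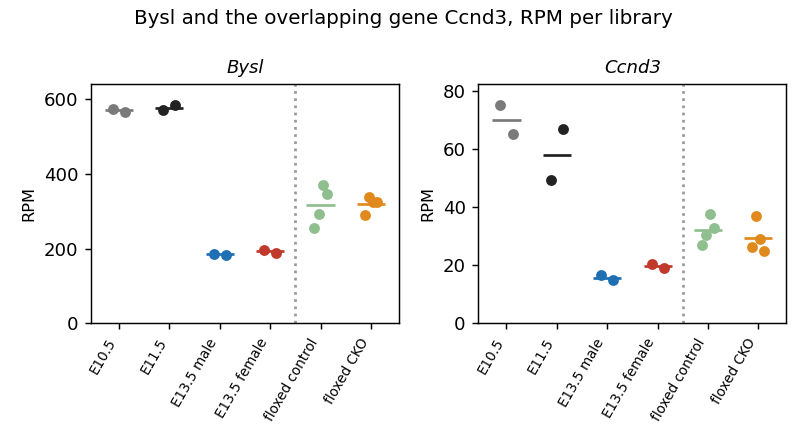
RPM of Bysl and Ccnd3 in each library (points, with the group mean as a line), for the 4 wild-type groups of 2 and, right of the dotted line, the 2 floxed groups of 4, whose table was normalised separately. Both genes are high at E10.5 and E11.5 and low at E13.5 in both sexes, and Bysl in the floxed E11.5 libraries, at 256 to 370 RPM, lies between the wild-type stages.

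At E11.5 Bysl also read lower in RPM in the floxed libraries than in the wild-type ones. The 4 controls read 256, 294, 370 and 346 RPM and the 4 CKO-labelled libraries 291, 339, 325 and 325, against 571 and 583 in wild-type cells of the same day. The strains, sorting and tables differ between the 2 sets, so these levels are only set side by side.

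At E13.5 most genes of this group read lower in RPM in the female cells than in the male cells. RPM is a share of the reads, so amounts per cell were not measured. By limma, 23 of the 42 genes were lower and 1 was higher in females at an adjusted p under 0.05, where 16.4% of all 10749 genes were lower and 21.2% higher. The median log2 difference over the 42 genes was -0.41, and over all genes tested it was 0.05. Both female libraries were below both male libraries in 33 of the 42 genes, against 32.2% of all genes. In 21 of the 42 the female libraries were the lowest of all 8, against 1607 of all 10749 genes. Without Npm1, which alone gave 4562 to 5920 RPM, the summed level was 7305 and 7828 RPM in males and 5554 and 5548 in females, with 7328 to 7644 at E10.5 and E11.5. The male sums thus overlapped the earlier stages, and the female sums lay below them.

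**Figure D3:**
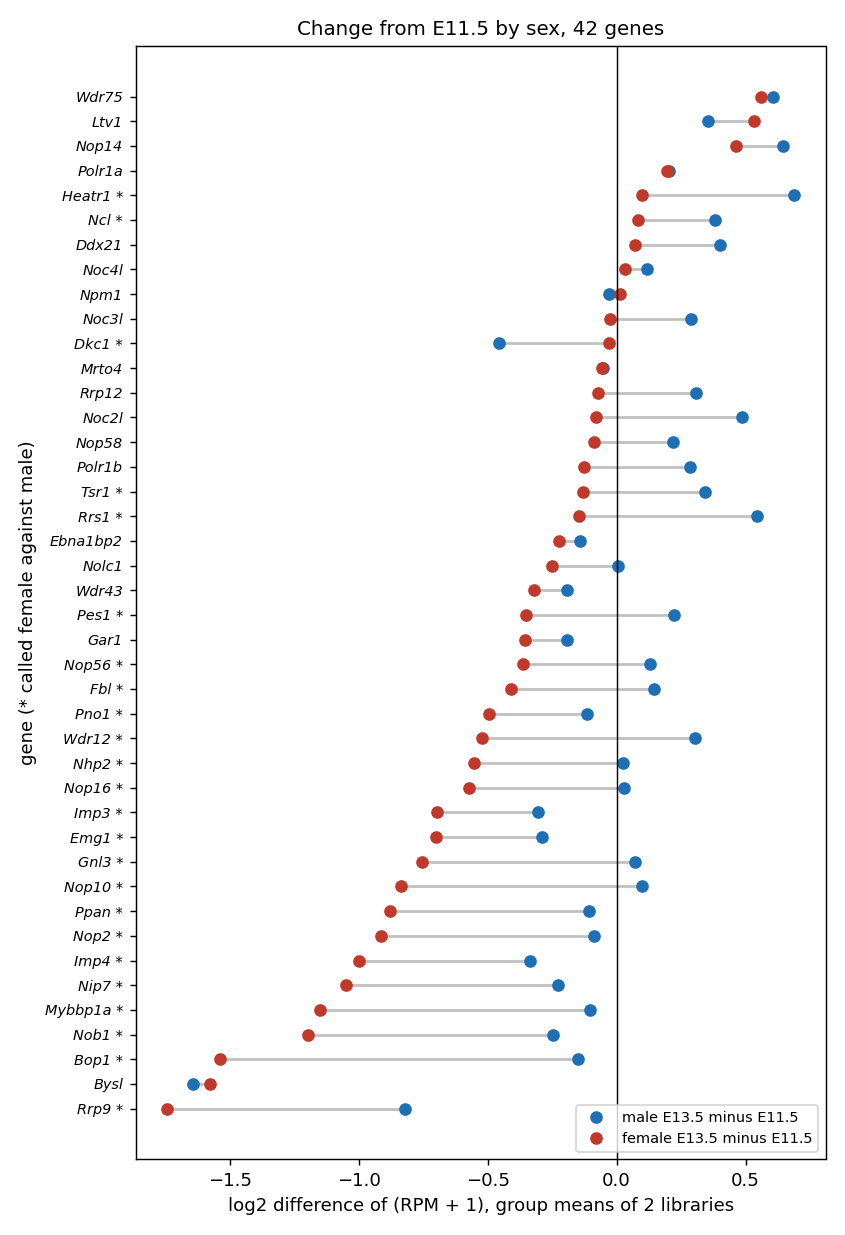
Log2 difference of RPM + 1 from E11.5 for each of the 42 genes (rows), in E13.5 males (blue) and E13.5 females (red), each from group means of 2 libraries; an asterisk marks the 24 genes called in the female against male comparison. Red points lie left of blue ones in 38 of 42 rows, while the 2 points of Bysl, at -1.64 and -1.58, nearly coincide. Over all 10749 genes tested, 5017 were lower in females by sign, and 37.6% were called.

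Among the 3 genes of RNA polymerase I in the group, Mybbp1a was lower in females, and Polr1a and Polr1b did not pass the test. Mybbp1a (chr11:72441327-72451770) encodes a nucleolar protein that associates with RNA polymerase I. It read 362 and 428 RPM in males and 202 and 179 in females, with 401 to 469 at E10.5 and E11.5. The female libraries were the lowest of the 8 by a wide margin. The log2 difference was -1.04 ± 0.10 (SE, adjusted p = 5.45e-09, limma), a female to male ratio of 0.483. Polr1a, the largest subunit, was at 82.9 ± 4.65 RPM (SD, n = 2) in males and 82.8 ± 11.2 in females. Polr1b, the second subunit, was at 52.3 ± 8.75 and 39.0 ± 6.33, with a 95% interval of the log2 difference from -0.80 to -0.03 and an adjusted p of 0.0833 (limma).

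Of the abundant nucleolar proteins, Gnl3 and Ncl were lower in females. Gnl3, which encodes nucleostemin, read 280.2 and 256 RPM in males and 153 and 148 in females, where E10.5 and E11.5 gave 238 to 265. The difference was -0.83 ± 0.11 (SE, adjusted p = 5.36e-07, limma). Ncl, which encodes nucleolin, was at 864 ± 110.4 RPM (SD, n = 2) in males and 699.5 ± 16.3 in females, a log2 difference of -0.30 (adjusted p = 0.00961, limma) that lost its call when the second library of either sex was left out. Npm1, which encodes nucleophosmin, was at 4698 ± 192 RPM in males and 4833 ± 75.9 in females, with a 95% interval of the log2 difference from -0.10 to 0.19. Nolc1, a chaperone of snoRNPs, was at 167 ± 22.7 and 139 ± 1.72 RPM, and Ddx21 at 125 ± 3.0 and 99.6 ± 5.22, and neither passed the test.

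The box C/D snoRNPs, which methylate ribosomal RNA, were lower in females in 3 of their 4 genes, where 16.4% of all genes were lower. Fbl, the methyltransferase fibrillarin, read 654 and 677 RPM in males and 457 and 448 in females, with 577 to 628 at the earlier stages. Its difference was -0.56 ± 0.09 (SE, adjusted p = 9.98e-06, limma), and the groups did not overlap. Rrp9, whose values are given above, differed by -0.92 (adjusted p = 5.77e-05, limma). Nop56, a core protein, was at 338 ± 26.5 RPM (SD, n = 2) in males and 239 ± 5.09 in females (log2 difference -0.49, adjusted p = 5.98e-04, limma). Its partner Nop58 was at 123 ± 12.4 and 100.4 ± 24.0 and did not pass.

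The box H/ACA snoRNPs, which pseudouridylate ribosomal RNA, moved in both directions. Nop10, a small core protein, read 223 and 305 RPM in males and 128 and 145 in females, a log2 difference of -0.93 ± 0.13 (SE, adjusted p = 1.06e-06, limma). Nhp2, another core protein, was at 358 ± 62.4 RPM (SD, n = 2) in males and 237 ± 4.97 in females (log2 difference -0.58, adjusted p = 1.56e-04, limma). Gar1 was at 99.4 ± 26.3 and 87.1 ± 4.0 and did not pass. Dkc1, the pseudouridine synthase dyskerin and the only one of the 42 on the X chromosome (chrX:75095854-75109776), was the gene called higher in females. It read 87.2 and 71.1 RPM in males and 98.0 and 115 in females, a log2 difference of 0.43 (adjusted p = 0.0312, limma). Left-out libraries took its difference down to 0.28 and its adjusted p up to 0.283. The last 500 bases of Dkc1 overlap exons of Mpp1, on the other strand, by 45 bases. Mpp1 was higher in females by 1.5 on the log2 scale (adjusted p = 8.14e-09, limma), with means of 29.6 RPM in males and 85.0 in females. The part of Mpp1 reads in the Dkc1 value was not tested.

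**Figure D4:**
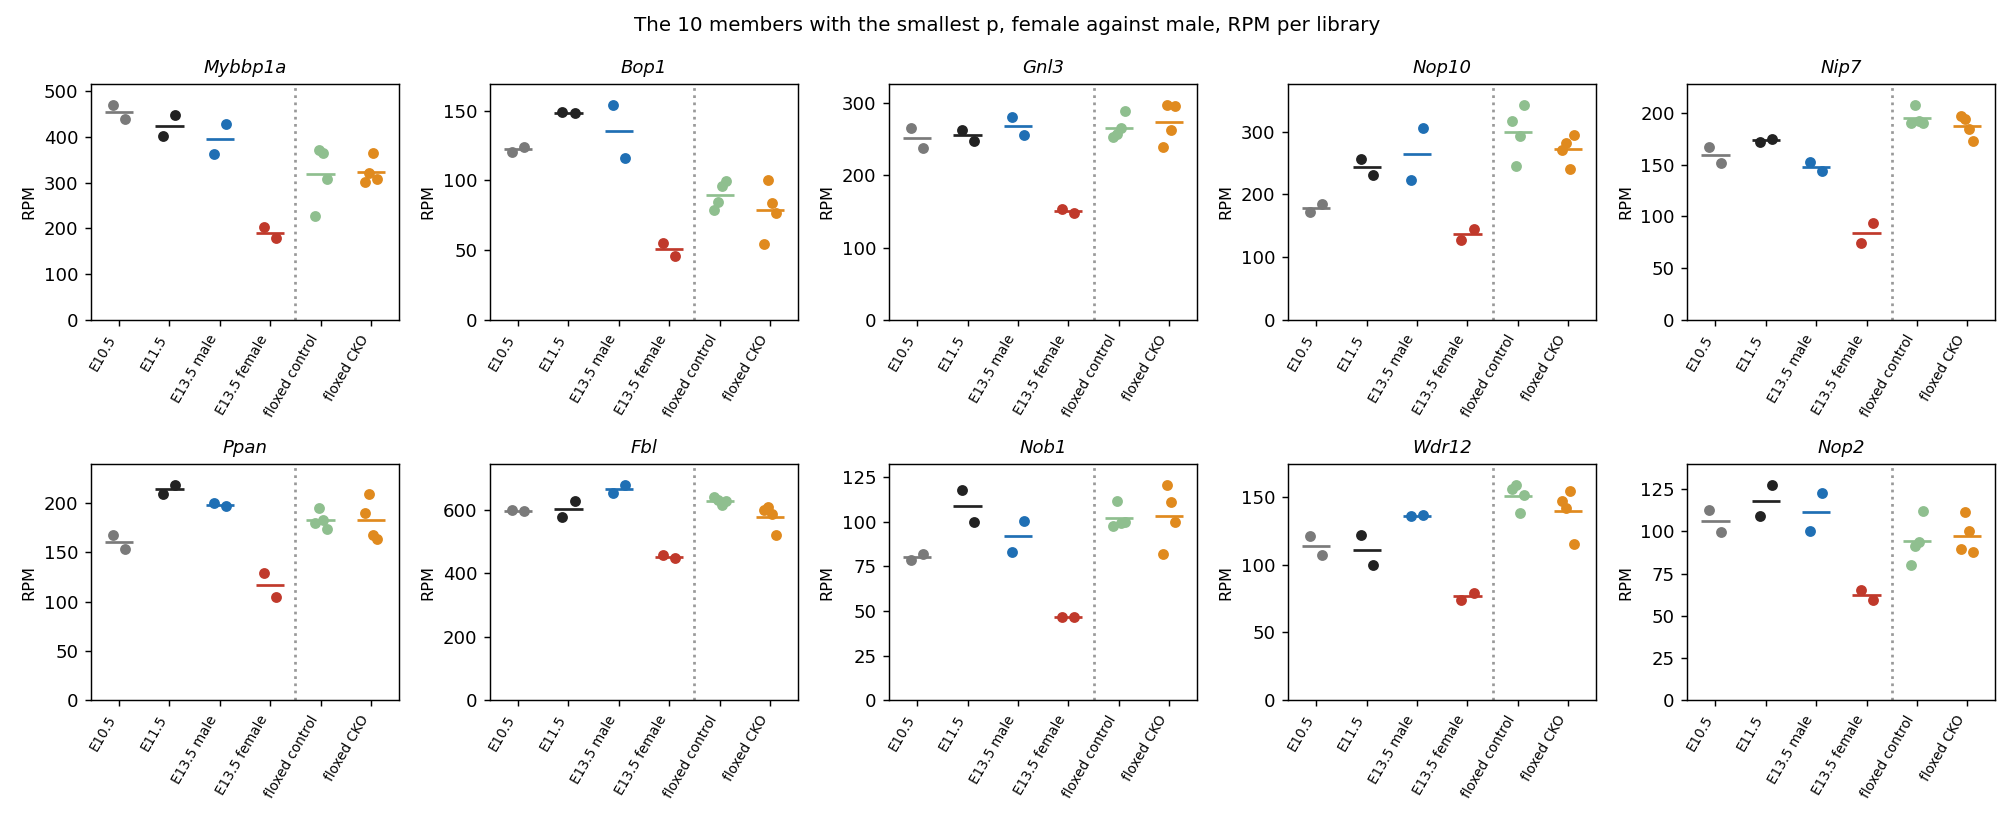
RPM per library of the 10 genes with the smallest p in the comparison of E13.5 females with males (points, with the group mean as a line), for the wild-type groups and, right of the dotted line, the floxed groups. In all 10 panels both female points lie below every other wild-type point, from Bop1 at 46.0 and 55.4 RPM to Fbl at 448 and 457. The 10 were picked by p, and the same order held for 1607 of all 10749 genes.

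Among the 14 small-subunit factors 7 were lower in females and none was higher, where 16.4% of all genes were lower and 21.2% higher. Nob1, the nuclease that makes the last cut of 18S RNA, read 82.8 and 101 RPM in males and 46.6 and 46.9 in females, with 78.5 to 118 before. Its difference was -0.95 ± 0.15 (SE, adjusted p = 1.02e-05, limma). Its partner Pno1 was at 102 ± 3.59 RPM (SD, n = 2) and 78.4 ± 2.34 (-0.38, adjusted p = 0.0351, limma). Imp4 differed by -0.66 (adjusted p = 4.88e-04), Heatr1 by -0.59 (7.14e-04) and Tsr1, a GTPase-like pre-40S factor, by -0.47 (0.0107), all by limma. Emg1, a ribosomal RNA methyltransferase, differed by -0.41 (adjusted p = 0.00120) and Imp3 by -0.39 (adjusted p = 0.0183), both by limma. Tsr1 was at 116 ± 12.1 RPM in males and 83.4 ± 7.44 in females, Emg1 at 320.5 ± 13.9 and 241 ± 3.49, and Imp3 at 127 ± 18.8 and 95.9 ± 1.16. Pno1, Tsr1 and Imp3 lost their calls when single libraries were left out, with adjusted p up to 0.165, 0.132 and 0.253.

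The other 7 small-subunit factors did not pass, and Bysl was among them. Its log2 difference between the sexes was 0.06, with a 95% interval from -0.13 to 0.26. Wdr75 differed by -0.05 (interval -0.27 to 0.17), Ltv1 by 0.18 (-0.08 to 0.43), Nop14 by -0.18 (-0.49 to 0.14) and Wdr43 by -0.13 (-0.36 to 0.10). Noc4l, at 40.0 ± 5.77 RPM (SD, n = 2) in males and 37.6 ± 5.32 in females, and Rrp12, an export factor, at 73.5 ± 14.1 and 55.8 ± 2.96, completed the class. Bysl and Wdr75, the lowest and the highest against E11.5, were thus not called between the sexes.

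In the large-subunit class 8 of 12 genes were lower in females and none was higher, where 16.4% of all genes were lower and 21.2% higher. Pes1, Bop1 and Wdr12, which form the PeBoW complex that processes 28S RNA, were all lower. Bop1 (chr15:76452988-76477249) read 154 and 116 RPM in males and 55.4 and 46.0 in females, a log2 difference of -1.39 ± 0.14 (SE, adjusted p = 9.08e-09, limma) and a ratio of 0.375. Wdr12 read 136 in both males and 73.8 and 79.2 in females (-0.82 ± 0.13, adjusted p = 1.93e-05, limma). Pes1 read 201 and 205 in males and 135 and 137 in females, where it was already 133 and 129.7 at E10.5 (-0.57 ± 0.12, adjusted p = 2.73e-04, limma). All 3 genes were lower in females than in males by more than the spread of either pair, but only Bop1 and Wdr12 were below every earlier library.

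Nop2, a methyltransferase of 28S RNA, read 100.2 and 123 RPM in males and 65.2 and 59.2 in females (-0.83 ± 0.14, adjusted p = 3.82e-05, limma). Nip7 read 152 and 144 in males and 74.4 and 93.2 in females (-0.82 ± 0.13, adjusted p = 8.20e-06, limma). Ppan read 199.7 and 197 in males and 129 and 104 in females (-0.77 ± 0.12, adjusted p = 8.57e-06, limma). In each of these large-subunit genes the female libraries were the lowest of the 8. Rrs1, which helps to load the 5S particle, was at 123 ± 15.7 RPM (SD, n = 2) in males and 75.5 ± 2.13 in females (-0.69, adjusted p = 3.40e-04, limma), and Nop16 at 115 ± 12.8 and 75.4 ± 1.58 (-0.60, adjusted p = 0.00107, limma). Rrs1 in males also exceeded its E11.5 level of 83.6 ± 5.54. The remaining 4 did not pass: Noc2l at 34.5 ± 1.05 and 22.9 ± 0.509, Noc3l at 26.4 ± 1.44 and 21.0 ± 1.31, Ebna1bp2 at 189 ± 0.537 and 179 ± 7.16, and Mrto4 at 206 ± 6.57 and 206 ± 3.52 RPM in males and females.

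Other transcripts moved with sex too. The 12 germ cell markers summed to 11857 to 11937 RPM in males and 6967 to 7046 in females, in part through Dppa3 at 6164 to 6401 against 2389.7 to 2567. The 7 erythroid markers summed to 5.01 to 7.04 RPM in males and 31.2 to 37.6 in females, the 5 endothelial markers to 58.5 to 59.4 and 115 to 121, and the 15 somatic markers to 19.0 to 19.4 and 5.44 to 6.03. In every E13.5 library 1 of the 5 endothelial markers and 0 of the 15 somatic markers were at 5 RPM or more. The part of all these markers in the sex differences was not tested. Including Bysl and Dkc1, 10 of the 42 genes overlap a gene of the other strand within their last 500 bases. The partner of Mybbp1a, Spns2, read at most 8.10 RPM in the wild-type libraries, and the partners of Nop56, Nhp2 and Emg1 (Idh3b, Rmnd5b and Lpcat3) did not pass the test between the sexes. Srr, the partner of Tsr1, differed by -0.40 (adjusted p = 0.0584) and Samd11, the partner of Noc2l, by -0.36 (adjusted p = 0.0541), both by limma. Lgals8, beside Heatr1, read at most 3.52 RPM. Mroh1, beside Bop1, was not found under that symbol, so its part in the Bop1 value could not be looked at.

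Other genes of the pathway were also called lower in females more often than higher. A list of 135 further ribosome biogenesis genes had 132 in the tables and 131 tested. Of these, 52 were lower (39.7%) and 11 higher (8.4%) in females, with a median of -0.33. Over all genes tested 16.4% were lower and 21.2% higher, and these background shares apply to each part of the list below. Like the group, the list was drawn up with earlier results of these data known. Of the 11 snoRNP assembly and RNase P genes 8 were lower (72.7%) and none higher. Ruvbl2, a helicase of the assembly complex, read 242 and 226 RPM in males and 95.7 and 99.5 in females (-1.25, adjusted p = 1.89e-10, limma). Rpp25, a subunit of RNase P and MRP, read 39.7 and 43.0 in males and 12.5 and 11.2 in females (-1.72, adjusted p = 1.51e-06, limma). Rpp38, another subunit, read 84.2 and 76.8 against 41.4 and 41.7 (-0.94, adjusted p = 2.49e-05, limma).

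Of 13 further RNA polymerase I genes 6 were lower (46.2%) and 1 higher (7.69%) in females. Polr1c, a subunit shared with RNA polymerase III, read 366 and 374 RPM in males and 154 and 154 in females (-1.26, adjusted p = 1.44e-10, limma). Tcof1, which encodes the nucleolar factor treacle, read 52.8 and 59.2 against 24.3 and 22.2 (-1.23, adjusted p = 5.34e-06, limma). Rrn3, the initiation factor TIF-IA that recruits the polymerase, went the other way. It read 369 and 334 at E10.5, 333 and 274 at E11.5, 111 and 125 in males, and 189 and 171 in females. Both sexes were below the earlier stages, as for Bysl, but females were above males by 0.61 (adjusted p = 1.31e-04, limma).

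The 35 tested genes of the small-subunit processome had 10 lower (28.6%) and 5 higher (14.3%) in females. Among the lower were Wdr46 (103 and 108 RPM in males, 54.6 and 46.6 in females), Utp15 (58.1 and 57.8, 23.2 and 27.7) and Aatf (129 and 137, 89.1 and 90.5). Of 8 late small-subunit genes 3 were lower (37.5%), including Rrp8 and the kinase gene Riok2. Tsr2, an escort of the ribosomal protein eS26, was the 1 called higher (12.5%), at 193 and 189 in females against 103 and 128 in males. The 48 large-subunit factors had 19 lower (39.6%) and 2 higher (4.17%). The lower ones were led by Ftsj3 (159 and 170 RPM in males, 83.6 and 73.2 in females), Ddx54 (147 and 140, 74.2 and 83.1) and Sbds (49.8 and 57.8, 27.0 and 26.6). Of 16 exosome and trimming genes 6 were lower (37.5%) and 2 higher (12.5%). In males against females, Exosc4 read 34.7 and 33.8 against 10.9 and 10.7, Mphosph6 176 and 151 against 101 and 86.1, and Exosc3 65.1 and 65.5 against 35.7 and 33.2. In all of these named genes the 2 pairs of libraries did not overlap. They were picked as called genes with the smallest p, so this adds no support. Of all 10749 genes tested, 32.2% had both female libraries below both male libraries.

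Of 82 tested genes for the ribosome's own cytosolic proteins 12 were higher (14.6%) and 13 lower (15.9%) in females, with a median of 0.009. Over all genes 21.2% were higher and 16.4% lower, so these shares did not exceed the background. Among 74 mitochondrial ribosomal protein genes 4 were higher (5.41%) and 17 lower (23%), with a median of -0.15. Ribosomal protein genes have many near-identical pseudogene copies, so their assignment is uncertain. The difference between these lists and the group was not tested.

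Between E10.5 and E11.5 few of the genes changed. By limma, 3 of the 42 were higher and 1 lower at E11.5, where 2.31% of all genes were higher and 1.97% lower. The median difference was 0.01, against 0.02 over all genes. With median-ratio scaling 1 of the 42 was higher and 1 lower, and over all genes 212 were higher and 280 lower in place of 248 and 212. Npm1 fell from 5919.6 and 5896 RPM to 4979.6 and 4610.2, a log2 difference of -0.30 ± 0.07 (SE, adjusted p = 0.0121, limma), and stayed at that level at E13.5. Nop10 rose from 172 and 184 to 257 and 231 (0.45 ± 0.13, adjusted p = 0.0360, limma), Ppan from 167 and 153 to 209 and 218 (0.41 ± 0.12, adjusted p = 0.0431, limma) and Pes1 from 133 and 129.7 to 189 and 160.3 (0.40 ± 0.12, adjusted p = 0.0439, limma).

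In all 4 genes the pairs did not overlap, but with either E10.5 library left out none of the 42 was called. These 4 genes were named because they were called, so their lack of overlap adds no support. Nob1, at 78.5 and 82.0 and then 118 and 99.9 RPM, had an adjusted p of 0.0923, Emg1 one of 0.0813 and Dkc1 one of 0.127 (limma). Bysl was level, with a log2 difference of 0.02, given as a description because its E11.5 libraries chose the group. The E10.5 libraries held more transcripts of other cells, with erythroid markers at 227 to 247 RPM against 6.26 to 16.8 at E11.5 and somatic markers at 62.7 to 68.8 against 6.06 to 10.8. Their part in these 4 changes was not tested.

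At E11.5 none of the 42 genes was called between the CKO-labelled and control libraries. By limma 2.43% of all 9384 genes tested were called in either direction, and voom on recovered reads also called none of the 42. An unadjusted p under 0.05 (limma) was found for 1 of the 42, and for 1125 of all 9384 genes. The median difference over the 42 was -0.02, the same as over all genes. Single differences lay between -0.29 for Rrp12 and Noc2l and 0.21 for Polr1b. The lowest p belonged to Mrto4, a factor of the large subunit, which read 226, 221, 203 and 203 RPM in the controls and 168, 178, 199 and 172 in the CKO-labelled libraries. These groups did not overlap, but Mrto4 was picked for the lowest p of the 42. The difference of -0.25 (95% interval -0.45 to -0.05) had an adjusted p of 0.249 (limma).

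**Figure D5:**
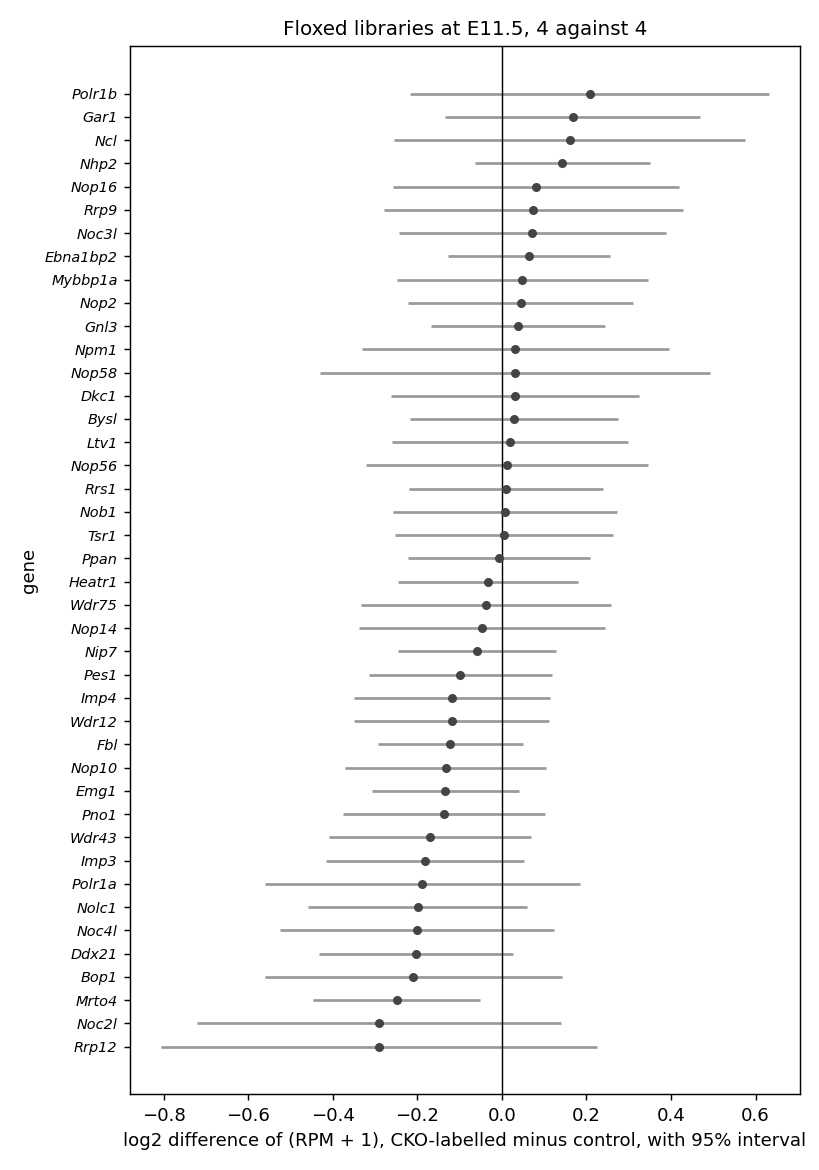
Log2 difference of RPM + 1 between 4 CKO-labelled and 4 control libraries for each of the 42 genes, with the 95% interval from limma as a bar. All points lie between -0.29 and 0.21, and the interval of Mrto4, -0.45 to -0.05, is the one that does not reach 0.

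For Bysl the interval ran from -0.22 to 0.27 and for Mybbp1a from -0.25 to 0.35. Intervals were wider for Rrp12 (-0.81 to 0.22), Nop58 (-0.43 to 0.49) and Polr1b (-0.22 to 0.63). Control 1 was the low library for several abundant genes, with Npm1 at 3099 RPM against 5405 to 5904 in the other controls and Ncl at 473 against 764 to 945. Without it the median over the 42 genes was -0.08, and still none was called. Somatic markers reached 266 RPM in CKO-labelled 4 and at most 78.0 RPM in any control, and without that library the median was -0.01, also with none called.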

How the data were processed

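The deposited values are RPM per gene, made by the authors and kept as 1 table of 8 floxed libraries and 1 of 8 wild-type libraries. The cDNA was first amplified with 11 cycles of PCR, and the 8 wild-type libraries started from 1 ng of RNA, per the labels. The input of the floxed libraries is not given in the sources used here. Reads were processed with cutadapt 1.3, TopHat 1.4.1 and Cufflinks 2.2.0 on mm10, per the submitters' processing notes. Each table was analysed on its own, so levels across the tables are only set side by side. Genes at 5 RPM or more in at least 4 floxed or 2 wild-type libraries were fitted as log2(RPM + 1) with limma 3.58.1 (R 4.3.3, moderated with an intensity trend), over all groups of a table, and p-values were adjusted by Benjamini-Hochberg over all genes tested, with calls at 0.05. A fold on this scale understates the change of low genes. Between 99.61% and 99.79% of values per library were whole multiples of 1 read, within 0.05 reads, which gave the depths; PCR reads without molecular identifiers are not independent molecules. The fits were tested on simulated data with increases only, for the CKO label and for E11.5 against E10.5. The comparison of the sexes and that of E13.5 with E11.5 were not simulated. The 42 genes and all gene lists were chosen with earlier results of these data known.

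Values in every library are given for Bysl, for genes called in a comparison (at most the 10 with the smallest adjusted p in each) and for the 5 genes at either end of the difference between E13.5 and E11.5. Up to 3 called genes with the smallest p are named for each further list. Replicate numbers were not taken to pair the libraries. The alternatives were other pseudocounts, filters and scalings, array weights, a replicate block, each library left out, and voom on recovered reads, which was added after seeing the data. ERCC spike-ins were not used here.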

Additional observations from a re-analysis of the deposited data

Results flagged for a closer look

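In the floxed groups of 4, single libraries stood far from the other 3 in 3 of the 84 groups of values checked, by Dixon's criterion, which chance meets in about 1 in 20 groups. Nhp2 was lowest in control 1, at 237 RPM, Nob1 was highest in control 2, at 111 RPM, and Nip7 was highest in control 2, at 207 RPM.

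The difference between E13.5 and E11.5 itself differed between the sexes for 24 of the 42 genes, by limma's test of that difference. This test equals the female against male comparison, because both sexes share the E11.5 libraries. In it 37.6% of all 10749 genes tested were called in either direction. For the large-subunit genes the female minus male values on the log2 scale were -1.39 for Bop1, -0.83 for Nop2, -0.82 for Wdr12, -0.82 for Nip7, -0.77 for Ppan, -0.69 for Rrs1, -0.60 for Nop16 and -0.57 for Pes1. For the small-subunit genes they were -0.95 for Nob1, -0.66 for Imp4, -0.59 for Heatr1, -0.47 for Tsr1, -0.41 for Emg1, -0.39 for Imp3 and -0.38 for Pno1. For the snoRNP genes they were -0.93 for Nop10, -0.92 for Rrp9, -0.58 for Nhp2, -0.56 for Fbl and -0.49 for Nop56, and 0.43 for Dkc1. Mybbp1a had -1.04, Gnl3 -0.83 and Ncl -0.30.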

How the results depend on the processing

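No call among the 42 genes reversed its direction under any alternative run. Between CKO-labelled and control libraries 0 genes were called in all 17 settings. Of the 24 calls between the sexes 19 held in all 13 settings, and the exceptions were Dkc1, Imp3, Ncl, Pno1 and Tsr1. Between E11.5 and E10.5 the count of 4 was 1 with a pseudocount of 0.1 RPM, 0 with no filter on low values, 2 with median-ratio scaling and 1 with array weights, and with single libraries left out it ran from 0 to 2; it was 0 without E10.5 replicate 1 or 2, 2 without E11.5 replicate 1 and 1 without E11.5 replicate 2. Over all genes the 460 calls became 340 with that pseudocount, 111 with no filter, 492 with median-ratio scaling and 279 with array weights. The cause of these changes was not tested. With the replicate block the counts were 24 between the sexes, 21 from E11.5 to E13.5, 4 from E10.5 to E11.5 and 0 for the CKO label. Over all genes they were 4099, 5167, 559 and 314 in the same order. After each gene's group mean was subtracted, same-numbered libraries of different groups correlated by 0.02 to 0.25 in the floxed table. In the wild-type table these correlations of deviations ran from -0.03 to 0.03. In groups of 2 the deviations are equal and opposite, so both replicate numbers give the same value. Differently numbered libraries were not compared, so these values do not settle whether the numbers pair them. The main fits took the libraries as unpaired.

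Over all genes, 228 calls for the CKO label became 139 with the filter at 20 RPM and 101 to 139 with single CKO-labelled libraries left out. They rose to 314 with the replicate block and to 319 with array weights. For E11.5 against E10.5, 460 became 111 with no filter, 279 with array weights, and 100 and 163 without E10.5 replicate 1 and 2. Between the sexes, 4038 became 2558 and 2552 without female replicate 1 and 2. The planned edgeR test was not run, because a few values per library were not whole reads. With 2 libraries a group, a leave-out assumes that the lone library varies like the other groups.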
